A study of Mus musculus with 8 samples.

Results

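The genes described here were those whose liver signal was highest at 12 months of age in wild type (WT) mice, above both younger and older animals. A member is a probe set, the group of short probes by which the array reads 1 transcript. L is the log2 of its signal, with signals below 1 set to 1. A probe set was a member if its mean L over all 8 arrays was 8 or more, if both 12-month WT arrays lay above all 3- and 19-month WT arrays, and if the 12-month mean L was at least 0.58 (1.495-fold) above the 3-month mean and above the 19-month mean. The smaller of these differences is called the gap. There were 85 members among the 45037 probe sets that are no array controls, or 0.629% of the 13523 probe sets with a mean L of 8 or more. Of the 85 probe sets, 80 carried 1 gene symbol and named 61 genes, 1 carried several symbols (Acot1 and Acot2) and 4 had no gene listed.

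Liver RNA had been measured on Affymetrix Mouse Genome 430 2.0 arrays, with 2 arrays for each of 4 groups: WT mice of 3, 12 and 19 months, and mice of 3 months that were homozygous for a targeted deletion within Sirt1 (MT), a gene for an NAD-dependent deacetylase. All mice came from a mixed background of 129/FVB/Black Swiss and were bred by intercrossing heterozygotes, and few MT animals outlive embryonic development. The comparisons of the study asked which liver genes change with age and which depend on Sirt1. The study's text speaks of more mice than arrays in a group, and whether an array held 1 mouse is not stated, so the spread between both arrays of a group may be partly technical. Values of a group are given for array 1 and array 2 in that order, and ages in brackets are those of WT mice. An array number names an array, and no pairing across groups is stated.

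The liver turns surplus sugar into fat. Glucose and fructose are broken down to pyruvate, mitochondria export citrate, and cytosolic enzymes build palmitate from the acetyl-CoA that citrate yields, with NADPH from malic enzyme and the pentose phosphate pathway as reductant. The enzymes of this route, called de novo lipogenesis, are known to be induced together in liver by feeding, through the transcription factors SREBP and ChREBP, liver X receptors and thyroid hormone. The product is stored in lipid droplets, which are coated by perilipins, or is secreted.

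The members were chosen by the WT signals at 3, 12 and 19 months, so their 12-month values are a description and carry no test. With the same thresholds, 113 probe sets were lowest at 12 months (0.836%), 123 were highest at 3 months (0.91%) and 180 were highest at 19 months (1.33%). The remaining patterns, lowest at 3 or at 19 months, held 137 (1.01%) and 111 (0.821%), so a peak at 12 months was the least frequent of the 6. The gap of the members lay between 0.58 and 1.86 with a median of 0.76, a 1.70-fold difference, and 18 members had a gap of 1 or more. Of the named genes, 14 were read by 2 or more members, 33 probe sets in all. The suffix of 10 members was _x_at and that of 9 was _s_at, which mark probes shared with other sequences or transcripts.

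Hepatocyte markers held on every array, since each of the 14 measured ones was at or above the 83.4th percentile of probe sets. The Sirt1 probe set read 589 and 539 (WT, 3 months) against 615 and 713 (MT), and since its place in the gene is not known here it checks no label. Xist was at or above the 95.2nd percentile on all 8 arrays and the 9 probe sets of Y-linked genes at or below the 43.1st, while the methods describe the mutant mice as male. The 14 hepatocyte markers summed to 627158 and 608098 at 3 months, 580809 and 651293 at 12 months, and 504501 and 558920 at 19 months, so that both 19-month sums were the lowest. Of the 14, 13 were higher at 12 than at 19 months, 5 with an unadjusted p under 0.05 (10.7% of all tested probe sets had one in either direction). The 16 Kupffer cell and macrophage markers summed to 47004 and 45824 at 3 months, 43127 and 47221 at 12 months, and 58178 and 85628 at 19 months. Of these 16, 11 had an unadjusted p under 0.05 on the lower side at 12 against 19 months, beside the same 10.7% of all. None of either list was below the array median throughout or a member. Summed B and plasma cell markers were 10823 and 10532 at 3 months, 18704 and 12841 at 12 months, and 19229 and 17696 at 19 months, with no member among them and 4 of their 16 below the array median throughout. The 3' to 5' difference of pyruvate carboxylase control probes, a sign of RNA quality, was 4.25 and 3.88 at 3 months, 4.54 and 5.10 at 12 months, 5.86 and 4.77 at 19 months, and 3.88 and 3.93 in MT mice (log2), while that of beta-actin lay between 0.97 and 1.48 and that of Gapdh between -0.62 and -0.34. Their part in the members' values was not tested. In whole liver, fewer cells of a type and less RNA per cell cannot be told apart.

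**Figure D1:**
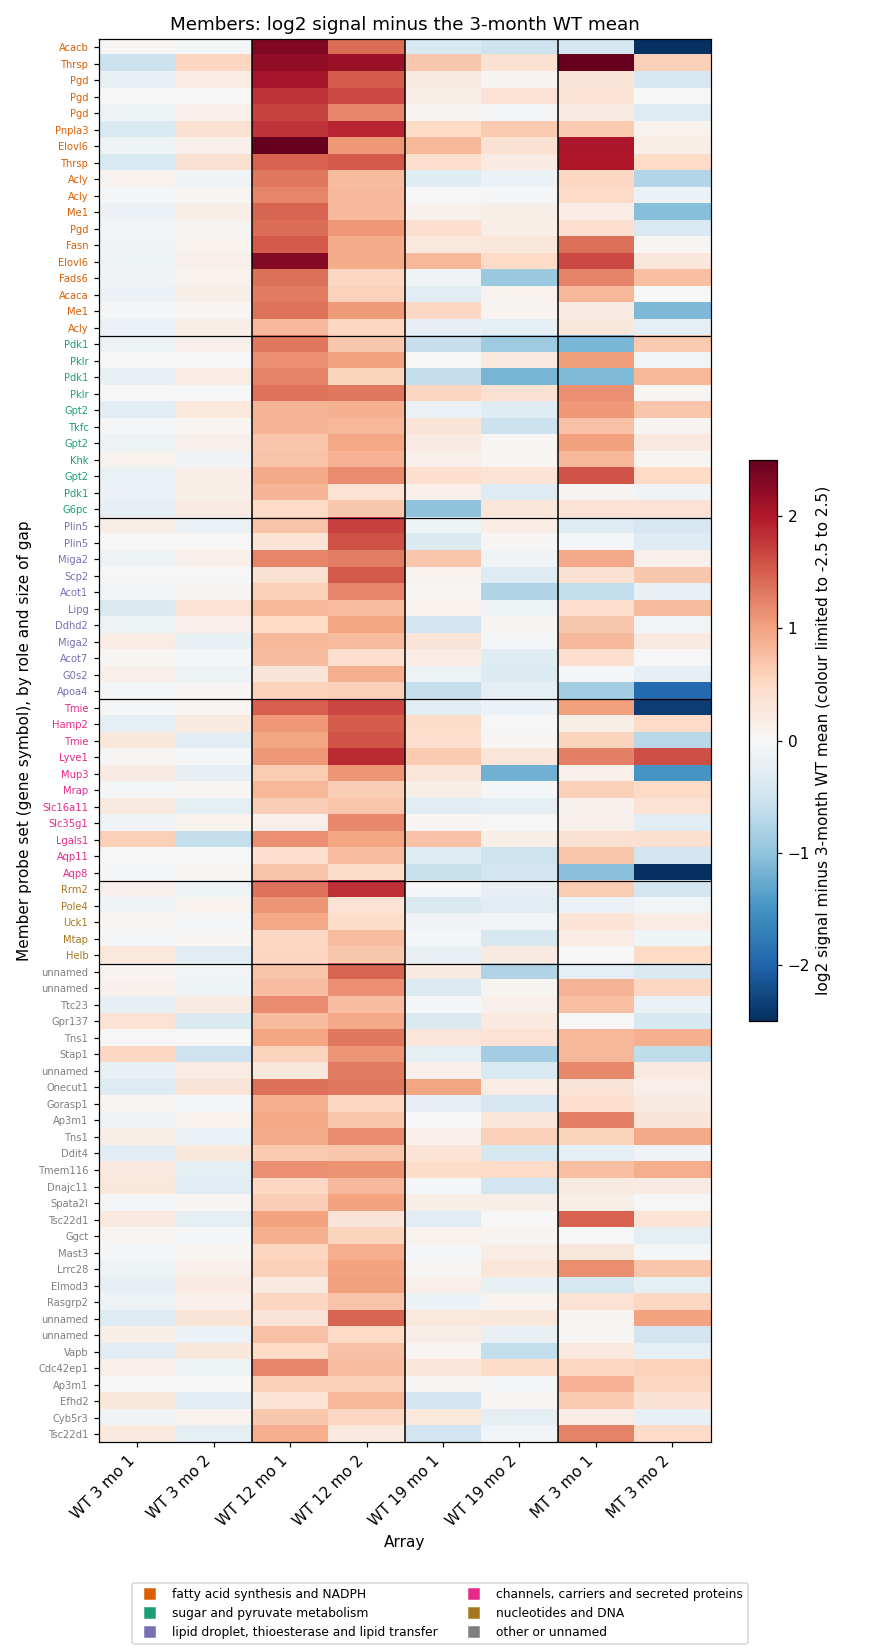
Log2 signal of each of the 85 members (rows, by role and then by gap) on each of the 8 arrays (columns), minus the mean of both 3-month WT arrays, with red higher and blue lower. Both 12-month columns are red in every row, as the rule required, while MT array 1 and MT array 2 differ, most plainly in the rows of fatty acid synthesis at the top.

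The largest role was fatty acid synthesis with its supply of NADPH, which held 18 probe sets of 10 genes. Their gaps were 0.66 to 1.86 with a median of 1.04, and 11 of the 18 members with a gap of 1 or more were among them. The 12-month mean was 1.58- to 4.55-fold that at 3 months. Every enzyme from citrate to palmitate was represented, that is Acly, Acaca and Fasn.

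Acly, which splits citrate to acetyl-CoA in the cytosol, had signals of 7466 and 8023 (3 months), 18123 and 13518 (12 months), 7678 and 7433 (19 months) and 10838 and 6977 (MT) in its brightest member (1451666_at). The 12-month mean was 2.02-fold that at 3 months, and the 3- and 19-month arrays overlapped. Both other Acly members had gaps of 1.06 and 0.66, with signals of 1054 and 928 (3 months), 2475 and 1707 (12 months), 800.1 and 891 (19 months) and 1410.5 and 596 (MT) in the former. In the latter they were 7412 and 9043 (3 months), 14319.6 and 11651 (12 months), 7079.5 and 6949 (19 months) and 9916 and 6985 (MT). MT array 2 lay below both 3-month arrays in all 3 Acly probe sets, and MT array 1 lay between the other WT arrays and the 12-month arrays.

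Acaca, the cytosolic acetyl-CoA carboxylase that makes malonyl-CoA for synthesis, read 1014 and 1244 (3 months), 2759 and 1671 (12 months), 941 and 1189.7 (19 months) and 2000.2 and 1112 (MT). Acacb, its mitochondrial counterpart, whose malonyl-CoA holds back the entry of fatty acids for oxidation, had the largest gap of all members (1.86). Its signals were 505 and 491 (3 months), 2485 and 1318 (12 months), 383 and 348 (19 months) and 373 and 82.4 (MT). The 12-month mean of Acacb was 3.63-fold the 3-month mean and 4.96-fold the 19-month mean, with both 19-month arrays below both 3-month arrays. MT array 1 was below both 3-month arrays for Acacb, and MT array 2 was below all 6 WT arrays.

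Fasn, the synthase that builds palmitate, had signals of 5199 and 5851 (3 months), 15905 and 10466 (12 months), 6642 and 6707 (19 months) and 14321 and 5692 (MT), a 12-month mean 2.34-fold that at 3 months. Both 19-month arrays were above both 3-month arrays, MT array 1 was between the 12-month arrays, and MT array 2 was within the 3-month range. Elovl6, which elongates palmitate to stearate, was read by 2 members. The first (1417403_at) read 959 and 1155 (3 months), 6301 and 2216 (12 months), 1868 and 1372 (19 months) and 4247 and 1180.1 (MT), and the second (1417404_at) 1761 and 2093 (3 months), 9369.7 and 3648 (12 months), 3393 and 2722 (19 months) and 6044 and 2349.6 (MT). The 12-month arrays of Elovl6 differed 2.84- and 2.57-fold from each other, array 1 being higher, so the size of its peak rested on 1 array. The third Elovl6 probe set (1442656_at) was just outside the threshold.

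**Figure D2:**
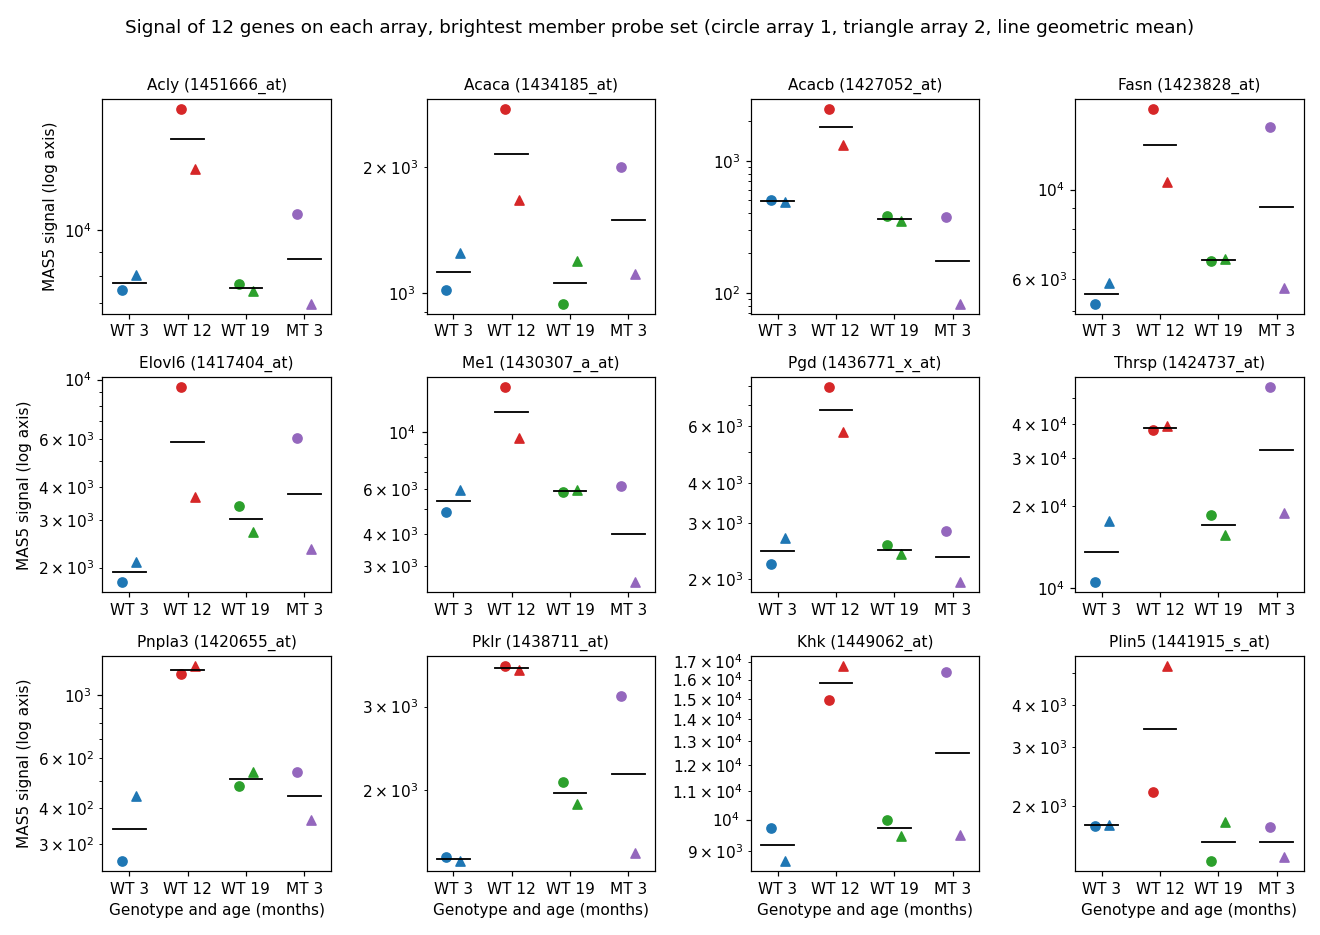
Signal (log axis) of 12 genes, each in its brightest member, on each array, by genotype and age, with circles for array 1, triangles for array 2 and lines for the geometric mean of both. In every panel both 12-month points lie above all other WT points, and in Fasn, Elovl6, Thrsp, Pklr and Khk the first MT array lies near or above the 12-month points while the second lies near the 3-month points.

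Me1 and Pgd are among the enzymes that supply NADPH for the synthesis, and both were members. G6pdx, another enzyme of the pentose phosphate pathway, was not analysed. Me1, the cytosolic malic enzyme, read 4898 and 5959.6 (3 months), 14910.2 and 9504 (12 months), 5846 and 5940.1 (19 months) and 6170.0 and 2599 (MT) in its brighter probe set. In the other it read 2082 and 2228 (3 months), 5522 and 4476 (12 months), 3093 and 2261 (19 months) and 2474 and 995 (MT). MT array 2 was below all 6 WT arrays in both Me1 probe sets, at 2599 and 995.

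Pgd, the phosphogluconate dehydrogenase of the pentose phosphate pathway, was read by 4 members, 3 of them with the suffix _x_at, with gaps of 0.95 to 1.64. The probe set of largest gap (1437380_x_at) read 1382 and 1782 (3 months), 6537 and 4501 (12 months), 1832 and 1653 (19 months) and 1961 and 1169.7 (MT), and the brightest (1436771_x_at) 2240.3 and 2696 (3 months), 7926 and 5742 (12 months), 2563 and 2394 (19 months) and 2829 and 1958 (MT). The remaining _x_at probe set (1438627_x_at) read 745 and 759.5 (3 months), 2636 and 2372 (12 months), 848 and 969.7 (19 months) and 951 and 743 (MT). The probe set without that suffix (1423706_a_at) gave 857 and 943 (3 months), 2364 and 1913 (12 months), 1204 and 1003 (19 months) and 1203 and 687 (MT). The peak of Pgd was thus seen in probes of both kinds, and MT array 2 was below all 6 WT arrays in each of the 4 probe sets.

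Thrsp, the thyroid hormone responsive protein that promotes lipogenesis, was read by 2 members. The one of larger gap (1422973_a_at) had signals of 3669 and 7626 (3 months), 24522 and 23591 (12 months), 8411 and 6869 (19 months) and 41513 and 8046 (MT), a 4.55-fold difference between 12 and 3 months. The other (1424737_at), the brighter, read 10513 and 17686 (3 months), 37994 and 39283 (12 months), 18543 and 15755 (19 months) and 54646 and 18917 (MT). MT array 1 was the highest of all 8 arrays in both Thrsp members, above the 12-month arrays, while MT array 2 was 5.16- and 2.89-fold below it. A dimmer Thrsp probe set outside the members (1444166_at) read 157 and 191 (3 months), 445 and 235 (12 months) and 366 and 360 (19 months). Its gap was -0.17, since its 12-month mean lay below its 19-month mean.

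Pnpla3, a patatin-like lipid droplet protein that is induced with lipogenic enzymes, read 261 and 442 (3 months), 1188 and 1266 (12 months), 479 and 536 (19 months) and 537 and 363 (MT). Its 12-month mean was 3.61-fold that at 3 months, and both 19-month arrays stood above both 3-month arrays. Fads6, a member of the fatty acid desaturase family, read 862 and 984 (3 months), 2378 and 1312 (12 months), 867 and 485 (19 months) and 2182 and 1551 (MT). In this Fads6 probe set both MT arrays lay between the 12-month arrays. A brighter Fads6 probe set outside the members (1443904_at) read 1701 and 1586 (3 months), 3306 and 1777 (12 months) and 2675 and 1700 (19 months). Its gap was 0.18, and its 12- and 19-month arrays overlapped.

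Sugar and pyruvate metabolism held 11 probe sets of 6 genes, with gaps of 0.58 to 0.99 and a median of 0.83. Pklr, the liver pyruvate kinase that ends glycolysis, was read by 2 members. The brighter (1438711_at) read 1449 and 1417 (3 months), 3656 and 3578 (12 months), 2079 and 1874 (19 months) and 3156 and 1478 (MT), a 2.52-fold difference between 12 and 3 months. The other (1421258_a_at) read 766 and 769 (3 months), 1699.8 and 1549 (12 months), 774 and 914 (19 months) and 1585 and 730.5 (MT). Both 19-month arrays lay above both 3-month arrays in each Pklr probe set.

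Khk, the ketohexokinase that starts fructose breakdown, read 9706 and 8695 (3 months), 14958 and 16757 (12 months), 9991 and 9451 (19 months) and 16442 and 9500.5 (MT). Tkfc, the triokinase that follows in the same route, read 949.9 and 1023 (3 months), 1773 and 1741 (12 months), 1237 and 678 (19 months) and 1637 and 1032 (MT). In both genes MT array 1 was above both 3-month arrays, and MT array 2 of Khk was within the 3-month range. Gpt2, a mitochondrial alanine aminotransferase that links pyruvate and alanine, had 3 members with gaps of 0.69 to 0.87. Its brightest member (1438385_s_at) read 4683 and 6829.6 (3 months), 10172 and 10471 (12 months), 5016 and 4560.4 (19 months) and 11955 and 9087 (MT). In all 3 Gpt2 probe sets MT array 1 was the highest of the 8 arrays and MT array 2 lay above all 3- and 19-month WT arrays.

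Pdk1, a kinase that shuts off pyruvate dehydrogenase, had 3 members and ran the other way between the MT arrays in 2 of them. The brighter (1423747_a_at) read 2342 and 3045 (3 months), 6317 and 3913 (12 months), 1765 and 1190.5 (19 months) and 1249 and 4743 (MT), and another (1423748_at) 1082 and 1280.4 (3 months), 2919.7 and 1869 (12 months), 793 and 632 (19 months) and 532 and 1847 (MT). In both, MT array 1 was below both 3-month arrays and MT array 2 was 3.80- and 3.47-fold higher. The Pdk1 probe set 1435836_at read 1271 and 1567 (3 months), 2549 and 1811 (12 months), 1550.4 and 1130.2 (19 months) and 1473 and 1326 (MT), with both MT arrays inside the 3-month range. G6pc, the catalytic subunit of glucose-6-phosphatase, which releases glucose rather than using it, was the member closest to the threshold. It read 7664 and 10287 (3 months), 12378 and 14242 (12 months), 4399 and 10914 (19 months) and 11358 and 11428 (MT), and its 19-month arrays lay far apart.

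The promoters of lipogenic members are shown because these genes are textbook targets of ChREBP and SREBP and shared the 12-month peak. Sequences came from RefSeq (GRCm38.p6), which held 69 promoters of 51 of the 61 member genes, and the 250 bases before each start were searched on both strands. Capitals mark the match, and positions count back from the start site. Pklr (chromosome 3, plus strand, chr3:89136373-89136622) held the letters of a carbohydrate response element (CANGNGNNNNNCNCNTG) at -170 to -154. Khk (chromosome 5, plus strand, chr5:30921309-30921558) held an E-box (CACGTG) at -71 to -66. In Fasn (chromosome 11, minus strand, chr11:120824548-120824797) there were 3 CCAAT boxes (CCAAT or ATTGG), 2 of which overlap, between -90 and -55. Thrsp (chromosome 7, minus strand, chr7:97417551-97417800) held 2 CCAAT boxes between -79 and -48.
Pklr: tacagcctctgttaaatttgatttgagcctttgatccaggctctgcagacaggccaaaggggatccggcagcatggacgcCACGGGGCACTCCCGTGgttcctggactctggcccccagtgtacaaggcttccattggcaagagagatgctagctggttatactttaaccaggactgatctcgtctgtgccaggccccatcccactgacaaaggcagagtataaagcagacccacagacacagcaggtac
Khk: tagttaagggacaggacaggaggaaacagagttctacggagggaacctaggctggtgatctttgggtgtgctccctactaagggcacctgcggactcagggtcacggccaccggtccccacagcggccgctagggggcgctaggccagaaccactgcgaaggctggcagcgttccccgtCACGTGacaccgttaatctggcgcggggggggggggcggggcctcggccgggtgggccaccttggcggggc
Fasn: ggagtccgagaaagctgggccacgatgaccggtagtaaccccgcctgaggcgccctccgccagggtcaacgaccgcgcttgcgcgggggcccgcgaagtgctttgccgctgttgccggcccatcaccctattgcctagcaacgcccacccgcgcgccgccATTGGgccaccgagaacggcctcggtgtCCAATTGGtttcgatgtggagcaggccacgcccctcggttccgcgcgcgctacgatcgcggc
Thrsp: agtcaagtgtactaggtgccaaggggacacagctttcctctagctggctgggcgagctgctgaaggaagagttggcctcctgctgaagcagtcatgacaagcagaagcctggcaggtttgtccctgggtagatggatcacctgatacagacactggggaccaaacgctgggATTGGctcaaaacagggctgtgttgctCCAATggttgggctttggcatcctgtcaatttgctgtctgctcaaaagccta

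Across the 69 member promoters the same motifs were counted. The E-box was in 4 (5.8%, in Aqp8, Khk, Onecut1 and Tsc22d1), against 6.02% of all 32851 promoters in the table. The carbohydrate response element-like letters were in 1 (1.45%), that of Pklr, against 0.454% of all, and the CCAAT box in 26 (37.7%) of 22 genes, against 33.8%. A sterol response element (TCACNCCAC) was in 0 member promoters and 1.05% of all, and direct repeats of the nuclear receptor site AGGNCA on the same strand, spaced by 1 base or by 4 bases of any kind, in 0, against 0.338% and 0.213% of all. The member promoters were not compared by a test, and a match or its lack in this window says nothing of binding.

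Lipid droplets, thioesterases and lipid transfer held 11 probe sets of 9 genes, with gaps of 0.59 to 1.18 and a median of 0.80. Plin5, a perilipin of oxidative tissues that ties droplets to mitochondria, had 2 members. It read 921 and 732 (3 months), 1354 and 2699 (12 months), 763 and 932 (19 months) and 653 and 617 (MT) in the first (1424937_at) and 1747 and 1749 (3 months), 2207 and 5234 (12 months), 1369 and 1789 (19 months) and 1724 and 1406 (MT) in the other (1441915_s_at). In contrast with the lipogenic enzymes, 12-month array 2 was the high one for Plin5, 1.99- and 2.37-fold above array 1. The Plin5 gaps were 0.68 and 0.34 without 12-month array 2, and 1.68 and 1.58 without array 1. Both MT arrays were below both 3-month arrays in each Plin5 probe set.

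G0s2, an inhibitor of the triglyceride lipase of droplets, read 7753 and 6460.2 (3 months), 8848 and 13032 (12 months), 6500.5 and 5552 (19 months) and 6965 and 6127 (MT). Acot1, which cleaves acyl-CoA in the cytosol, read 1944 and 2112 (3 months), 3044 and 4704 (12 months), 2079.7 and 1208 (19 months) and 1331 and 1773 (MT), and the probe set shared by Acot1 and Acot2 (1422997_s_at) 1474 and 1358 (3 months), 2324 and 3880.3 (12 months), 1652 and 845 (19 months) and 1212 and 1100.5 (MT). For G0s2 and both of these probe sets 12-month array 2 was again above array 1, and MT arrays were not above the 3-month range. Of the remaining droplet and lipid genes, Acot7, a thioesterase, Ddhd2, a lipase of membranes and droplets, Lipg, the endothelial lipase, and the 2 probe sets of Miga2, which joins mitochondria to droplets, had gaps of 0.60 to 0.96.

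Scp2, a carrier of sterols and acyl chains, was a member through 1 of its 4 probe sets (1419974_at), which read 1000.1 and 1009 (3 months), 1300.3 and 2923 (12 months), 1067 and 799.7 (19 months) and 1301 and 1601 (MT). The other 3 Scp2 probe sets had gaps of -0.30 to 0.00, so the Scp2 peak was seen in 1 probe set only, whose gap was 0.37 without 12-month array 2. Apoa4, an apolipoprotein of triglyceride-rich particles, read 11429 and 11896 (3 months), 17394 and 17712 (12 months), 7794 and 9816 (19 months) and 6354 and 3017 (MT). Both MT arrays of Apoa4 lay below all 6 WT arrays, and both 19-month arrays below both 3-month arrays. A brighter Apoa4 probe set outside the members (1436504_x_at) had a gap of 0.47 and read 8786 and 5302 in MT mice, where array 1 was below both 3-month arrays but above 19-month array 1 (8045).

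Channels, carriers and secreted proteins made up 11 probe sets of 10 genes. Hamp2, a hepcidin peptide, read 17368 and 23496 (3 months), 42881 and 57880.0 (12 months), 27616 and 20036 (19 months) and 22313 and 27972 (MT), and Mup3, a major urinary protein, 31209.9 and 23764 (3 months), 42009.7 and 58247 (12 months), 33533 and 11813 (19 months) and 29771 and 9791 (MT). Both are _x_at probe sets of families with near-identical copies, so their signal may belong to relatives, and both were far brighter than most members. Mup genes are known to depend on sex in liver.

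Aqp8, a water and ammonia channel of hepatocytes, read 9102 and 9794 (3 months), 15577 and 12985 (12 months), 6445 and 6783 (19 months) and 4566 and 1578 (MT). Its MT arrays were below all 6 WT arrays and its 19-month arrays below both 3-month arrays. Aqp11, an aquaporin of the endoplasmic reticulum, read 820.1 and 838 (3 months), 1109.8 and 1419 (12 months), 669.5 and 575 (19 months) and 1341 and 594 (MT). Here MT array 1 was between the 12-month arrays and MT array 2 below both 3-month arrays.

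Lyve1, the hyaluronan receptor of lymphatic and liver sinusoidal endothelium, read 201 and 192 (3 months), 415 and 720.3 (12 months), 309 and 242 (19 months) and 472 and 602 (MT), a 2.78-fold difference between 12 and 3 months. Both MT arrays of Lyve1 lay between the 12-month arrays. The 12 endothelial markers together, Lyve1 included, summed to 18448 and 17012 at 3 months, 16581 and 18079 at 12 months, 17301 and 17455 at 19 months, and 13978 and 17986 in MT mice. None of the 12 was below the array median on all arrays, and the endothelial sum at 12 months did not exceed that at 3 months.

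Tmie, a protein of the hair cell mechanotransduction channel, had 2 members. In 1441926_x_at it read 369 and 393 (3 months), 1067 and 1211 (12 months), 317 and 344 (19 months) and 777 and 73.5 (MT), so the MT arrays differed 10.6-fold. In 1443964_at it read 368 and 251 (3 months), 598 and 899 (12 months), 414 and 311 (19 months) and 446 and 188 (MT). MT array 2 was below all 6 WT arrays in both. The remaining genes of this role, Lgals1 (a galectin), Mrap (an accessory protein of the ACTH receptor), Slc16a11 (a monocarboxylate transporter family member) and Slc35g1, had gaps of 0.62 to 0.68.

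Nucleotide and DNA genes were 5 members. Rrm2, the small subunit of ribonucleotide reductase and a marker of DNA synthesis, read 271 and 234 (3 months), 645 and 889 (12 months), 247 and 217 (19 months) and 393 and 183 (MT), with a gap of 1.59. Pole4 (a DNA polymerase epsilon subunit), Uck1 (a uridine-cytidine kinase), Mtap (methylthioadenosine phosphorylase) and Helb (a DNA helicase) had gaps of 0.59 to 0.73. Of the 18 tested genes of a cell cycle list, Rrm2 was the only member, and the others had a median difference of 0.09 between 12 and 3 months.

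The last 29 probe sets, of 21 named genes and 5 without a single name, were assigned to no role and had gaps of 0.58 to 1.09. The largest of these gaps was that of the probe set shared by Acot1 and Acot2, described above with the thioesterases. Tns1, a tensin that links actin to integrins, read 503 and 500.3 (3 months), 999.8 and 1259 (12 months), 621 and 643 (19 months) and 888 and 930.3 (MT) in 1428650_at, with both MT arrays between the other WT arrays and the 12-month arrays. Ap3m1, a subunit of the vesicle adaptor, read 2119 and 2093 (3 months), 3171 and 3177 (12 months), 2144 and 2028 (19 months) and 3828 and 3021 (MT) in 1448308_at, where MT array 1 was the highest of the 8 arrays. Ddit4, an inhibitor of mTOR signalling induced by stress and fasting, read 373 and 556 (3 months), 716 and 737 (12 months), 579 and 335 (19 months) and 389.6 and 427 (MT). Onecut1, a hepatocyte transcription factor, read 165 and 259.5 (3 months), 538 and 513 (12 months), 411 and 234 (19 months) and 259 and 224 (MT).

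The other genes of this kind were Cdc42ep1, Cyb5r3, Dnajc11, Efhd2, Elmod3, Ggct, Gorasp1, Gpr137, Lrrc28, Mast3, Rasgrp2, Spata2l, Stap1, Tmem116, Tsc22d1, Ttc23 and Vapb. Their gaps ran from 0.58 in Tsc22d1 to 0.93 in Ttc23. Probe sets of these genes outside the members, with a mean L of 8 or more, did not all share the peak. Their gaps were -0.42 (1423152_at, brighter than the member) and 0.02 in Vapb, -0.01 in Rasgrp2, and -0.42 and 0.56 in Tsc22d1. In Cyb5r3, Dnajc11, Efhd2 and Lrrc28 they were 0.03 to 0.42.

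The threshold had no natural break beside it. Just inside lay G6pc, Tsc22d1 (1454971_x_at), Cyb5r3, Helb and Efhd2 with gaps of 0.58 to 0.59, and just outside lay Trim7, Elovl6 (1442656_at), Smim27, Pacc1 and Polr1d with gaps of 0.57 down to 0.55. Tsc22d1 read 5578 and 4021 (3 months), 8935 and 5620.5 (12 months), 3382 and 4508 (19 months) and 11173 and 6556 (MT), and Cyb5r3, a cytochrome reductase, 6943 and 7817 (3 months), 11746 and 10482 (12 months), 8798 and 6227 (19 months) and 8329 and 6478 (MT). Helb read 278 and 193 (3 months), 335 and 372 (12 months), 205 and 270.1 (19 months) and 232 and 326 (MT), and Efhd2, a calcium-binding protein, 2981 and 2004 (3 months), 3097 and 4373 (12 months), 1747 and 2496 (19 months) and 3859.6 and 3199.8 (MT). On the other side, WT signals of Trim7 were 273 and 268 (3 months), 430.1 and 401 (12 months) and 297 and 262 (19 months), and those of the Elovl6 probe set 268 and 241 (3 months), 495 and 285 (12 months) and 217 and 131 (19 months). Those of Smim27 were 867 and 867 (3 months), 1291 and 1263 (12 months) and 775 and 786 (19 months), of Pacc1 725 and 899.8 (3 months), 985 and 1435 (12 months) and 667 and 694 (19 months), and of Polr1d 1154 and 1212 (3 months), 1868 and 1604 (12 months) and 1147 and 952 (19 months). In MT mice these 5 read 418 and 287, 353 and 206, 749.8 and 1118, 1291 and 869 and 1457 and 1501.

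Probe sets of member genes that the rule left out leaned the same way. There were 69 of them, for 40 genes, and 29 had a mean L of 8 or more. Of these 29, 22 had a 12-month mean above both other WT means, against 30.7% of all probe sets of that level, and 7 did not. In 11 of the 29 both 12-month arrays were above all other WT arrays, against 7.93% of all. Their median gap was 0.18, against -0.11 over all probe sets of that level. They read the same RNA as the members on the same arrays, so this says how far probes of a gene concur and is no further sample.

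Both 12-month arrays did not share in the peak equally, and the higher one depended on role. Array 1 was higher in 16 of the 18 fatty acid synthesis and NADPH members, with a median difference of 0.50 (log2), the exceptions being Pnpla3 and 1 Thrsp probe set. In lipid droplet, thioesterase and lipid transfer members array 1 was higher in 3 of 11, with a median of -0.49. Of all 85 members array 1 was higher in 41, and 7 members differed by 1 or more between the 12-month arrays, or 8.24% against 3% of all probe sets with a mean L of 8 or more. With 2 arrays, an age effect and a difference between animals within an age cannot be told apart.

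**Figure D3:**
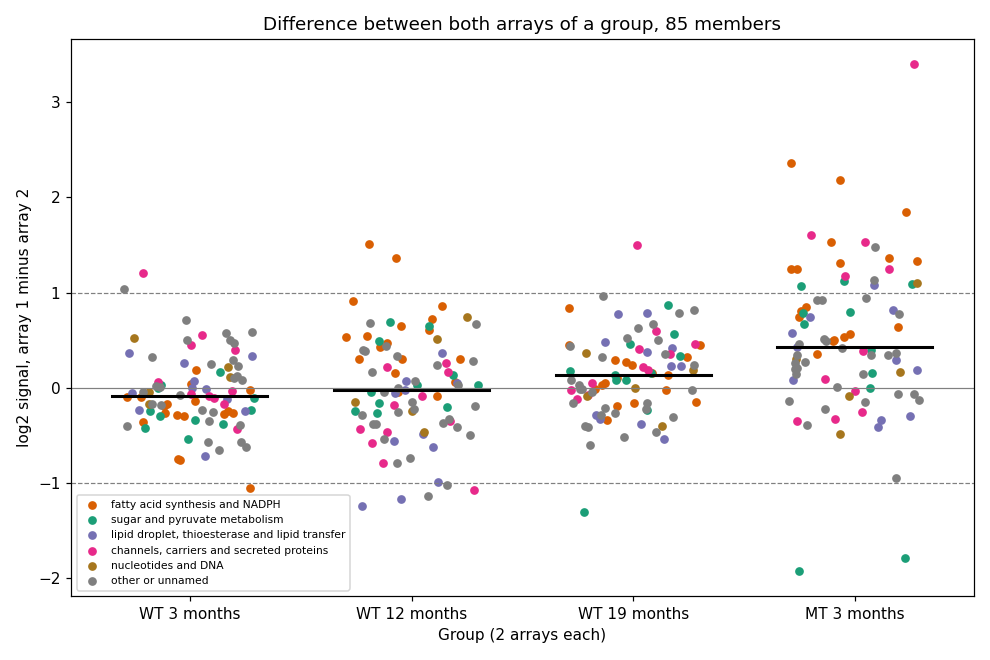
Log2 signal of array 1 minus array 2 within each group (4 columns) for each of the 85 members, coloured by role, with a black line at the median and dashed lines at -1 and 1. The median lies at -0.09, -0.03 and 0.14 for WT mice of 3, 12 and 19 months and at 0.43 for MT mice, where 21 members lie above 1 and 2 below -1.

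The MT mice answer how these genes lay without Sirt1 at 3 months. The rule did not use the MT arrays except in the mean level, but it chose members that were low at 3 months, and the 3-month arrays are also the base of the MT comparison, so both differences share arrays and are given side by side only. No member was called in MT against WT mice by limma with Benjamini-Hochberg adjustment over 22519 probe sets, where 116 were called in all (0.515%). At an unadjusted p under 0.05, 21 members were higher in MT mice and 3 lower, against 7.28% and 6.18% of all tested probe sets. With a fold over 1.5, the methods' t-test passed 2 members, Tns1 and Lyve1, both higher, against 3.95% of all, and 0 after Benjamini-Hochberg adjustment. The median difference of the 85 members was 0.25 (log2), against 0.02 over all tested probe sets, and ranged from -1.81 to 1.79.

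The smallest p-values belonged to genes outside fatty acid synthesis. Lyve1 differed by 1.44 ± 0.28 (SE, n = 2 and 2 arrays, adjusted p by limma = 0.0613) and Tns1 (1428650_at) by 0.86 ± 0.17 (SE, n = 2 and 2 arrays, adjusted p by limma = 0.0630). Ap3m1 (1448308_at) differed by 0.69 ± 0.15 (SE, n = 2 and 2 arrays, adjusted p by limma = 0.0763) and Gpt2 (1438385_s_at) by 0.88 ± 0.19 (SE, n = 2 and 2 arrays, adjusted p by limma = 0.0830). Apoa4 and Aqp8 lay on the low side, at -1.41 ± 0.28 (SE, n = 2 and 2 arrays, adjusted p by limma = 0.0665) and -1.81 ± 0.38 (SE, n = 2 and 2 arrays, adjusted p by limma = 0.0730). In each of these 6 members both MT arrays were outside the 3-month range on the same side. Other members of these genes differed by 0.79 in Ap3m1, 0.64 and 1.04 in Gpt2 and 0.75 in Tns1. Probe sets of these genes outside the members, with a mean L of 8 or more, differed less. They were at 0.31 and 0.2 in Ap3m1, 0.39 in Gpt2, 0.38 in Tns1 and -1.06 in Apoa4. In that Gpt2 probe set (1439029_at) MT array 2 (458) was inside the 3-month range (341 and 508).

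Among the lipogenic enzymes the MT differences had no common sign. They were 1.79 ± 0.61 and 1.24 ± 0.41 for Thrsp (adjusted p = 0.242 and 0.229, limma), 1.09 ± 0.58 and 0.97 ± 0.47 for Elovl6, 0.998 ± 0.33 for Fads6 and 0.71 ± 0.36 for Fasn. Near 0 were Acly (1451666_at, 0.17 ± 0.21) and the brightest Pgd probe set (-0.06 ± 0.21), and below 0 were Me1 (1430307_a_at, -0.43 ± 0.35) and Acacb (-1.51 ± 0.57, adjusted p = 0.290). Over the 18 probe sets of the role the median was 0.16, and over the 11 of sugar and pyruvate metabolism it was 0.44.

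In 32 of 85 members both MT arrays were above both 3-month arrays, against 26.4% of all probe sets with a mean L of 8 or more. In 8 members both were below (against 23.6%), and in 45 the groups overlapped. The MT mean was nearer to the 12-month than to the 3-month mean in 30 members. Both MT arrays were above both 12-month arrays in 0 members, and both were below all 6 WT arrays in 4, namely Aqp8, Apoa4, Plin5 (1424937_at) and Elmod3. No share over all probe sets is given for these counts or for the 30 before them. The rule itself set the 12-month arrays above the other WT arrays, so nothing is read from them.

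The MT means hide a disagreement between the MT arrays. They differed by 1 or more (log2) in 23 members, 27.1%, against 2.35% of all probe sets with a mean L of 8 or more, and array 1 was the higher in 21 of the 23. The corresponding counts of members were 3 at 3 months (0.621% of all), 7 at 12 months (3%) and 2 at 19 months (1.56%). MT array 1 was higher in 65 members overall and in 18 of the 18 fatty acid synthesis and NADPH members, by a median of 1.04. The median over all probe sets of that level was near 0 (-0.0028).

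Each of the MT arrays gave a picture of its own. On array 1 the members lay a median of 0.42 above the 3-month WT mean. There, 35 were higher by 0.58 or more and 5 lower (6.71% and 6.45% of all probe sets with a mean L of 8 or more). Above both 12-month arrays were 10 (36.8% of all), among them Thrsp, Gpt2, Ap3m1 and Tsc22d1. At or above the lower 12-month array were 26, for which no share over all probe sets is given. On array 2 the median was 0.05, 14 were higher and 10 lower by 0.58 or more (6.33% and 6.93% of all), and 0 were above both 12-month arrays (37.7%), which the rule had placed high. Below all 6 WT arrays were 23 members on array 2 (18.7% of all) and 5 on array 1 (18.2%). Among those 23 were all 4 Pgd and both Me1 probe sets, 2 of Acly, Acacb and Rrm2. A BioC-5 hybridization control was lower on MT array 1 (11.28, against 12.30 to 12.70 on the other arrays, log2). A BioC-3 control was also lower there (11.60, against 12.17 to 12.64), while the other BioC-5 probe set was at 12.89, against 12.58 to 12.94. An 18S RNA control was lower on MT array 2 (14.5, against 15.2 to 15.7). The part of these controls in the members' values was not tested.

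**Figure D4:**
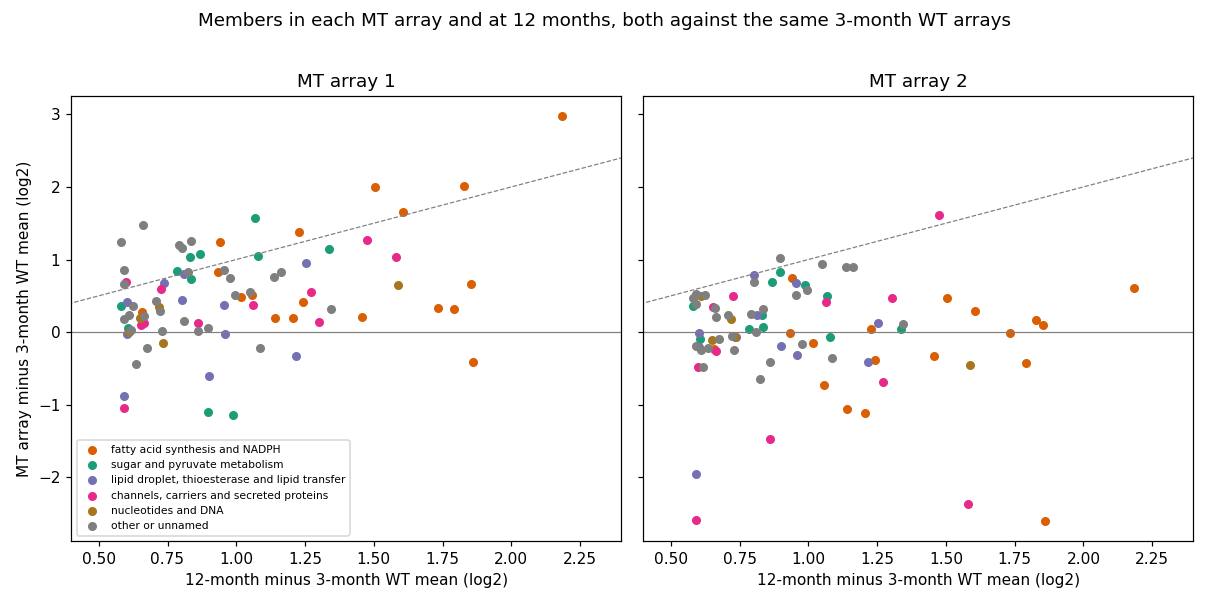
Each MT array minus the 3-month WT mean (vertical axis, log2) against the 12-month minus the 3-month WT mean (horizontal axis, log2) for the 85 members, coloured by role, where both axes share the 3-month arrays and the dashed line marks equal values. On MT array 1, 10 members lie above both 12-month arrays, while on MT array 2 none does and the largest negative values belong to Acacb, Aqp8, Tmie and Apoa4.

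The MT differences of some members depended on the array kept. In a fit without MT array 1, Aqp8 lay at -2.58 (log2), Apoa4 at -1.95, Tmie (1441926_x_at) at -2.37 and Acacb at -2.60. In a fit without MT array 2, Thrsp lay at 2.97 and 2.003 in its members, Gpt2 (1434542_at) at 1.57 and Pklr (1438711_at) at 1.14. Aqp8 lay at -1.05 there, below 0 in both fits. Each fit rests on 1 MT array, so no calls are given. In these fits the lone MT array was taken to vary like the other groups.

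Array 1 of the 12-month mice and array 1 of the MT mice were the higher ones in fatty acid synthesis, but over all members the array differences of both groups were weakly related. The correlation of 12-month array 1 minus array 2 with MT array 1 minus array 2 was 0.21 across the 85 members and -0.05 across all probe sets with a mean L of 8 or more. These values describe probe sets on 4 arrays, and no pairing of animals by array number is stated.

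The rule set both the 3- and the 19-month arrays of every member below its 12-month arrays, so the counts for 19 against 3 months are a description and nothing is read from them. By limma 0 members were called in either direction (8 of 22519 probe sets in all, 0.0355%), 0 had an unadjusted p under 0.05 (12.5% of all), and the methods' t-test passed 0. The median difference was -0.02 (log2), with a range of -0.88 to 0.66, and 68.2% of the members were within 0.3, close to the 62.9% of all tested probe sets. Both 19-month arrays were above both 3-month arrays in 16 members (29.3% of all probe sets with a mean L of 8 or more) and below both in 14 (23.8%). In fatty acid synthesis and NADPH the median was 0.21, with Fasn, Elovl6 and Pnpla3 among the members above. Elovl6 lay at the upper end of all members (0.61 and 0.66) and Pdk1 at the lower (-0.88 and -0.73 in 1423747_a_at and 1423748_at).

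Pathway genes outside the members were read in the same way. The 18 lists held 431 genes, and 20 member genes were in 9 of them. Of the 349 tested list genes that were no members, limma called 0 at 12 against 3 months (3 of 22519 probe sets in all, 0.0133%) and 0 at 12 against 19 months (0 of 22519, 0%). Unadjusted p-values under 0.05 numbered 22 higher and 37 lower at 12 than at 3 months (8.57% of all tested probe sets had one), and 23 higher and 34 lower at 12 than at 19 months (10.7% of all). The methods' t-test with a fold over 1.5 passed 14 of them at 12 against 3 months, 3 higher and 11 lower (2.23% of all tested probe sets), and 4 at 12 against 19 months, 2 higher and 2 lower (2.33%), and 0 after Benjamini-Hochberg adjustment. Member genes, taken by the rule for their difference, are left out of these counts.

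In the fatty acid synthesis list 7 of 20 tested genes were members, and the other 13 had a median difference of 0.45 between 12 and 3 months, against -0.0034 over all tested probe sets. Of these 13, 6 lay higher with an unadjusted p under 0.05 and 0 lower, against 8.57% of all tested probe sets in either direction. Pnpla5, a relative of Pnpla3 whose mean level was too low for the rule, read 106 and 47.4 (3 months), 368 and 282 (12 months) and 81.9 and 50.3 (19 months), a difference of 2.19. Scd1, the stearoyl-CoA desaturase, read 35861 and 40148 (3 months), 56472 and 63740.5 (12 months) and 48676 and 49875 (19 months), and Elovl5, an elongase of polyunsaturated fatty acids, 29349 and 28806 (3 months), 33380.3 and 40965 (12 months) and 25659 and 29168 (19 months). Both peaked at 12 months in rank, with gaps of 0.28 and 0.35.

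The genes of both transcription factors did not meet the rule. Srebf1 read 6626 and 4943 (3 months), 9123 and 6737 (12 months) and 8633 and 10256 (19 months), highest at 19 months, and Mlxipl, which encodes ChREBP, 7828 and 7339 (3 months), 10631 and 7331 (12 months) and 7709 and 5609.6 (19 months), with overlapping groups. Their arrays measure RNA and not the processed or active proteins. In the NADPH list 2 of 12 tested genes were members. The other 10 had a median of 0.04 at 12 against 3 months and 0.14 at 12 against 19 months.

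In the list of triglyceride synthesis and lipid droplets 3 of 23 tested genes were members. Of the other 20, 7 lay higher and 1 lower at 12 than at 3 months before adjustment (p under 0.05), with a median of 0.09. At 12 against 19 months 3 lay higher and 0 lower. Over all tested probe sets 8.57% had such a p-value in either direction at 12 against 3 months, and 10.7% at 12 against 19 months. Gpam, the first enzyme of glycerolipid synthesis, read 11473 and 12978 (3 months), 17618 and 14512 (12 months) and 10948 and 10071 (19 months), with both 12-month arrays highest. In the list of cholesterol synthesis and uptake 0 of 20 tested genes were members, 0 had an unadjusted p under 0.05 on the higher side at 12 against 3 months and 1 on the lower, and the median was -0.06. Msmo1, a methyl sterol oxidase of that route, read 7296 and 13892 (3 months), 7780.2 and 3557 (12 months) and 11757 and 10752 (19 months). In the list of fatty acid oxidation 1 of 23 was a member (Acot1). Of the other 22, 0 passed an unadjusted p of 0.05 on the higher side at 12 against 3 months and 1 on the lower. At 12 against 19 months 2 passed it on the higher side and 0 on the lower, with a median of 0.22. The glycolysis and glucose production list had 3 members of 20. The other 17 had a median of 0.03 at 12 against 3 months and 0.11 at 12 against 19 months.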

How the data were processed

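The deposited values were intensity values, MAS5 signals on a linear scale that the authors had scaled to an equal trimmed mean on all 8 arrays (MAS5 version: not given in the sources used here). No detection calls were used, so no filter on presence was made. The 64 control probe sets were left out. Ages and genotypes came from the sample descriptions. Signals under 1 were set to 1 and put on the log2 scale. The brighter 50% of probe sets (22519, mean log2 signal 6.18 or more) were fitted with limma 3.58.1 in R 4.3.3 (lmFit, eBayes with a variance trend) with 4 groups in 1 fit, 4 residual and 5.37 prior degrees of freedom, and Benjamini-Hochberg adjustment for each comparison; calls are adjusted p-values under 0.05. The fit was tested on simulated data, and the number of arrays limits the precision. The smallest p of a permutation of 2 against 2 arrays is 0.333, and no permutation test was run.

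The rule for the members, the gene lists and the roles were chosen with earlier results of these data known. Values on every array are given for the 15 named members of largest gap, the members in a gene list, the 6 of smallest p in MT mice and 5 on either side of the threshold. Other members were named by role. For a list gene the brightest probe set stood in. Some list genes were not analysed here, and 349 that are no members were tested. Probe sets were named from the platform annotation (34945 with 1 symbol, 932 with several, 9160 with none listed). Motifs were searched in the RefSeq promoter table (GRCm38.p6). Alternatives covered normalization, transform, filter, fit, test, thresholds, a replicate block and each array left out.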

Additional observations from a re-analysis of the deposited data

How the results depend on the processing

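The number of members was 63 to 113 under other level thresholds, quantile normalization, median centring and log2(signal + 16), and 18 with a gap of at least 1. Leaving out 1 array gave 82 to 227 members, with 227 without 12-month array 1 (62 of the 85 kept) and 185 without 12-month array 2 (60 kept), since with 1 array at 12 months fewer values have to lie above the rest. All 880 gaps of the 80 named members under the alternatives were above 0, the lowest being 0.11, and 788 were 0.58 or more; the rule itself fixed this direction.

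For MT against WT mice at 3 months the count of called members was 0, with 1 (Lyve1, adjusted p = 0.0425) when only both groups were fitted, 2 by the methods' t-test before adjustment, and 0 to 5 when 1 array was left out. Without 12-month array 1 or array 2 it was 2, Lyve1 (adjusted p = 0.0255 and 0.0266) and Tns1 (adjusted p = 0.0427 and 0.0438). After Benjamini-Hochberg adjustment the methods' t-test gave 0.437 for Lyve1 and 0.386 for Tns1. For fits that left 1 MT array or 1 WT array of 3 months no count or p-value is given, since such a group has no spread of its own. Apoa4 and Aqp8 were called in none of the other alternatives. The median MT difference of the members was 0.20 to 0.25 under the other settings, but 0.05 without MT array 1 and 0.42 without MT array 2; each MT array alone was added after seeing the data. At 19 against 3 months the count was 0 in every alternative, with both groups set low by the rule.

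Among list genes outside the members, 0 were called at 12 against 3 months, with 1 after median centring (Per2) and 14 by the methods' t-test before adjustment. With an MT or a 19-month array left out there were 0 to 1. At 12 against 19 months the counts were 0, then 4 by the methods' t-test and 0 with an MT array or a WT array of 3 months left out. No pairing of samples by array number is stated. Differences between arrays 1 and 2 correlated between groups at -0.03 to 0.14, which does not decide whether arrays of the same number were handled together. With the replicate block the counts were 0 in all 4 comparisons. With 2 arrays per group, a difference has to be large to be called. The cause of these shifts was not tested.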
